A study of Mus musculus with 9 samples.

Results

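The fat that a mouse eats is taken up by the enterocytes of the jejunum as fatty acids and monoglycerides, and 10 genes of that route were followed here. Cd36 and Slc27a4 stand for fatty acid uptake, Fabp1 and Fabp2 for binding in the cytosol, Acsl5 for activation to acyl-CoA, Mogat2, Dgat1 and Dgat2 for the rebuilding of triglyceride, and Scd1 and Scd2 for desaturation. The genes were chosen by name, and probes were assigned to them where the gene symbol printed in the array files matched. Of the 15674 genes with a symbol on the array, 8 of the 10 were found in this way, each by 1 probe. The probe of Scd2 also carries the symbol Scd3, so that these desaturases could not be told apart, and its values are given as Scd2/Scd3. Mogat2 was found only through its RefSeq accession, on a probe that bears the older symbol Mgat1l. It is reported beside the others, which makes 9 genes. No probe was matched to Acsl5, which was not analysed here.

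RNA was measured in 9 jejunum samples of male mice of the outbred stock OF1, each aged 7 weeks and each hybridised to 1 single-colour Applied Biosystems array read by chemiluminescence. Per the labels, the mice belonged to the third generation kept on feed B (mice 7, 8 and 10), feed K (mice 1, 3 and 4) or feed G (mice 4, 8 and 11), with food and water freely available under equal light and dark phases. The methods differ on their origin and describe purchased mice. The study addressed a custom maize diet, but the letters are not explained and no feed is named as the control, so each pair of feeds was compared. According to the methods, food was withheld for 3 h before sampling, and the time of day at sampling was neither recorded nor randomised over the feeds. Each sample is a whole segment of gut wall, so that a lower level may stand for fewer cells of a type or for less RNA per cell, which cannot be told apart here.

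In the enterocyte, long-chain fatty acids are bound at the brush border and in the cytosol, coupled to coenzyme A and passed to the endoplasmic reticulum. There a monoglyceride is acylated to a diglyceride and then to a triglyceride, which leaves the cell in a chylomicron or waits in a lipid droplet. The stearoyl-CoA desaturases make monounsaturated fatty acids and are abundant in tissues that synthesise or store fat.

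All 9 genes were detected on all 9 arrays, with signal-to-noise ratios from 11.3 to 130.1. Levels are given as log2 of the quantile-normalized signal, in which 1 unit is a 2-fold difference. They allow a gene to be compared between mice but not with another gene, because probes differ in brightness. The share of detected probes lay between 33.7% and 48.1% per array and was lowest in mice 8 and 7 of feed B. All 5 matched enterocyte markers (Anpep, Krt20, Slc15a1, Slc5a1 and Vil1) were detected on every array, and their summed signal was 637112 to 817458 on feed B, 899455 to 937932 on feed K and 847477 to 882944 on feed G. Of the 4 ileal markers, Fabp6, the bile acid-binding protein of the ileum, was not detected in mouse 8 of feed B, had log2 signals of 8.10 to 12.19 in 5 further mice, and reached 15.81 in mouse 7 of feed B, 17.84 in mouse 10 of feed B and 19.51 in mouse 11 of feed G. The sum of the 4 ileal markers was 129329, 359287 and 845042 in these 3 mice and between 39972 and 64189 in the other 6. Mouse 10 of feed B and mouse 11 of feed G were highest for each of the 4 markers. The markers other than Fabp6 did not set mouse 7 of feed B apart. Its Slc10a2 (9.46) was below mouse 4 of feed K (9.73), and its Slc51b (15.61) below mouse 1 of feed K (15.62). Its Slc51a (14.37) was close to mouse 8 of feed B (14.35). The 2 matched markers of the proximal intestine, Gata4 and Slc40a1, did not set the 3 mice with high Fabp6 apart. Their summed signal was 1616 in mouse 7 of feed B, 2102 in mouse 10 of feed B and 2014 in mouse 11 of feed G. In the other 6 mice it was 1167 to 2133.

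The sequence upstream of the transcription start is shown for 3 genes. Over all 9 mice, Fabp1 and Cd36 had similar orders of mice by level while Fabp2, the relative of Fabp1, did not. The relation of Fabp1 and Cd36 did not pass after adjustment. Without mouse 10 of feed B and mouse 11 of feed G the contrast was reversed. There, Pearson's r with Fabp1 was 0.65 for Cd36 and 0.87 for Fabp2. The 250 bases before the start were taken from RefSeq (GRCm38.p6) and are written 5′ to 3′ on the strand of the gene. They lie at chr6:71199629-71199878 on the plus strand for Fabp1, at chr5:17835897-17836146 on the minus strand for Cd36, inside the annotated span of that gene, and at chr3:122894822-122895071 on the plus strand for Fabp2. Capitals mark the TATA box (TATAAA, read on the strand of the gene), the half-site of nuclear receptors (AGGTCA, or TGACCT on the opposite strand) and the motif of caudal-type homeobox factors (TTTATNG, or CNATAAA on the opposite strand).
Fabp1 upstream: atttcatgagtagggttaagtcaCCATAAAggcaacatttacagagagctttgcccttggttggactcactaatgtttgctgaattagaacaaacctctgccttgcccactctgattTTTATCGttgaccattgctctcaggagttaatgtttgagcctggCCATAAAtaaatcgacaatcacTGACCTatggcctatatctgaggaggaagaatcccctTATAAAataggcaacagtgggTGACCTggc
Cd36 upstream: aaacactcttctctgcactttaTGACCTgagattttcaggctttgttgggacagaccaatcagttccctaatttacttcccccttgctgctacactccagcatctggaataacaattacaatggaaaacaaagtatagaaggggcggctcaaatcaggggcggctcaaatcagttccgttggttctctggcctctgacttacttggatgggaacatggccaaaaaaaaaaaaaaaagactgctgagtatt
Fabp2 upstream: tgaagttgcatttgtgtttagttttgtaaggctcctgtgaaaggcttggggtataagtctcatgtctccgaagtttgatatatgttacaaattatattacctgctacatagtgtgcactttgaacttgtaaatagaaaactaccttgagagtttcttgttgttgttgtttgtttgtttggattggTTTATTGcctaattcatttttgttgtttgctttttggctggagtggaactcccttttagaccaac

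The Fabp1 window held a TATA box that began 30 bases before the start, half-sites 67 and 9 bases before it, and caudal-type motifs 227, 133 and 89 bases before it. The Cd36 window held 1 half-site, 228 bases before the start, and neither of the other motifs. The Fabp2 window held 1 caudal-type motif, 65 bases before the start. None of these matches overlapped another. Among all 32851 promoter windows of the table, 7.59% held the TATA box, 14.0% the half-site and 9.81% the caudal-type motif, so a match is common, and it describes letters only. No window for Dgat1, Dgat2, Mogat2, Scd1 or Scd2 was used here.

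**Figure D1:**
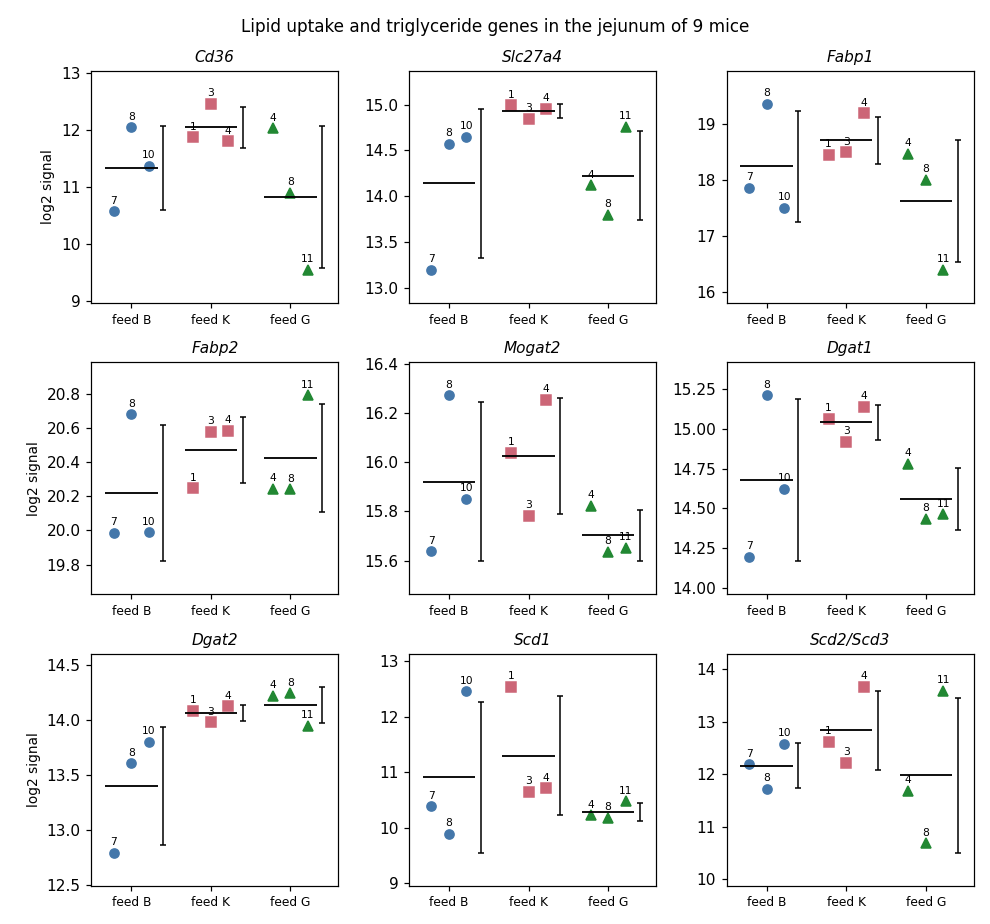
Log2 signal of each of the 9 genes (vertical axis, one panel per gene with its own scale) in the 3 mice of feed B, feed K and feed G (horizontal axis). Points are mice with their numbers, horizontal lines are feed means, and error bars beside them are SDs of 3 mice. Mouse 11 of feed G is lowest for Cd36 and Fabp1 and highest for Fabp2, and mouse 7 of feed B is lowest for Slc27a4, Dgat1 and Dgat2.

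Cd36, the scavenger receptor that binds long-chain fatty acids at the cell surface (chr5:17781690-17888959), was among the most variable of the genes. Its log2 signal was 10.58, 12.04 and 11.38 in mice 7, 8 and 10 of feed B, 11.87, 12.46 and 11.80 in mice 1, 3 and 4 of feed K, and 12.03, 10.90 and 9.55 in mice 4, 8 and 11 of feed G. The 3 mice of feed K lay close together near the top, whereas those of feeds B and G were spread widely, and the feeds overlapped. From the lowest to the highest mouse the signal differed 7.49-fold, and the SD over the 9 mice was 0.91. The SD within feeds was 0.86, almost as large. Mouse 11 of feed G set the lower end, and without it the range was 3.67-fold.

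Slc27a4, the fatty acid transport protein of the small intestine (chr2:29802634-29817522), had a log2 signal of 13.20, 14.57 and 14.65 on feed B, 14.99, 14.85 and 14.96 on feed K, and 14.12, 13.80 and 14.76 on feed G, in the same order of mice. All 3 mice of feed K stood above all mice of feeds B and G. The mean difference of feed K from feed B was 0.79 ± 0.41 (standard error), or 1.73-fold, and that of feed G from feed K was -0.71 ± 0.41. Neither passed limma's test after Benjamini-Hochberg adjustment over all 9653 genes tested (adjusted p = 0.804 and 0.960). The whole range was 3.47-fold (5.53-fold with median scaling), and mouse 7 of feed B set its lower end, without which it was 2.29-fold.

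Fabp1, the fatty acid-binding protein shared with the liver (chr6:71199879-71205034), had a log2 signal of 17.85, 19.35 and 17.50 on feed B, 18.44, 18.49 and 19.18 on feed K, and 18.46, 18.00 and 16.40 on feed G. The range was 7.73-fold, from mouse 11 of feed G to mouse 8 of feed B, and the SD within feeds (0.88) was about that over all mice (0.89). It was 3.75-fold without mouse 11 of feed G and 4.75-fold with median scaling of the arrays. The 3 lowest mice were the 3 with the highest Fabp6. Without these 3 arrays, an alternative chosen after the values were seen, the range of Fabp1 over the other 6 mice was 2.58-fold and that of Cd36 was 2.94-fold. The part of the ileal signal in the spread of Fabp1 was not tested.

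Fabp2, the intestinal fatty acid-binding protein (chr3:122895072-122899506), was far more even. Its log2 signal was 19.99, 20.68 and 19.99 on feed B, 20.25, 20.58 and 20.58 on feed K, and 20.24, 20.24 and 20.79 on feed G, a range of 1.75-fold. Mouse 11 of feed G, lowest for Fabp1, was highest for Fabp2. Its deposited Fabp2 signal (1663851) was about that of mouse 8 of feed G (1663931), so the difference between these 2 mice came with the normalization. The Fabp2 spots of mouse 3 of feed K and of mice 8 and 11 of feed G carried a flag of 4. This flag was found on 31 spots of the series, all with a deposited signal of at least 1453969, and its meaning is not given in the sources used here, so the upper end of the Fabp2 scale is uncertain.

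Mogat2, the acyltransferase that turns monoglyceride into diglyceride in the intestine (chr7:99219084-99238611), had the narrowest range of the 9 genes, 1.55-fold. The log2 signal was 15.64, 16.27 and 15.85 on feed B, 16.04, 15.78 and 16.25 on feed K, and 15.82, 15.64 and 15.65 on feed G. Mouse 8 of feed B and mouse 4 of feed K stood highest, and the feeds overlapped.

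Dgat1, one of the enzymes that complete the triglyceride (chr15:76502012-76512021), had a log2 signal of 14.20, 15.21 and 14.62 on feed B, 15.06, 14.92 and 15.14 on feed K, and 14.78, 14.43 and 14.46 on feed G. All mice of feed K lay above all mice of feed G, and feed B spanned both. The mean of feed G was lower than that of feed K by 0.48 ± 0.27 on the log2 scale (limma, adjusted p = 0.960), and the range over the mice was 2.02-fold.

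Dgat2, the unrelated enzyme for the same last step, lies beside Mogat2 (chr7:99153663-99182713). Its log2 signal was 12.80, 13.61 and 13.80 on feed B, 14.08, 13.98 and 14.12 on feed K, and 14.22, 14.24 and 13.95 on feed G. All 3 mice of feed B lay below all 6 mice of the other feeds, a pattern shared by 1.86% of 9556 genes. The mean was 13.40 ± 0.53 (SD, n = 3) on feed B, 14.06 ± 0.07 on feed K and 14.13 ± 0.16 on feed G. Relative to feed B it was higher by 0.66 ± 0.27 on feed K (1.58-fold) and by 0.73 ± 0.27 on feed G (1.66-fold). Dgat2 was the 1 member with an unadjusted p under 0.05 in limma's F test over the feeds (0.049), a result shared by 5.37% of all genes tested, and its adjusted p was 0.897. When the F statistic was compared with its values over all 280 splits of the mice (exact permutation), the unadjusted p was 0.021, and the smallest possible is 0.0036. Mouse 7 of feed B weighed most: without it the differences from feed B were 0.36 on feed K and 0.43 on feed G, and without mice 7 and 8 they were 0.26 and 0.33.

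Other measures also set the feed B samples apart from the rest. Dbp, a transcription factor driven by the circadian clock, had a log2 signal of 10.56, 12.46 and 9.98 in mice 7, 8 and 10 of feed B, 12.69 to 13.57 on feed K and 12.73 to 13.99 on feed G. Nfil3, which cycles in the opposite phase, was 9.85 to 10.23 on feed B, 9.41 to 9.57 on feed K and 8.77 to 9.02 on feed G. Of the 7 clock genes examined, 5 had no overlap between feed B and the other mice. Feed B was lower for 3 (Dbp, Nr1d2 and Per2), as for 1.86% of 9556 genes, and higher for 2 (Arntl and Nfil3). The share of all genes with feed B higher was not counted. Per2 was not detected in mice 7 and 10 of feed B. Nr1d1 and Tef overlapped. The summed signal of the 7, which adds genes of opposite phase, was 6429 to 12465 on feed B, 14276 to 21778 on feed K and 16602 to 26211 on feed G. The summed enterocyte markers and, in mice 7 and 8, the share of detected probes were also lowest on feed B. Among the enterocyte markers, only Slc5a1 was lower in all feed B mice (15.03 to 15.59 against 15.72 to 16.68). Anpep, Krt20, Slc15a1 and Vil1 overlapped with the other feeds. The part of sampling time, cell content and detection in the Dgat2 difference was not tested.

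**Figure D2:**
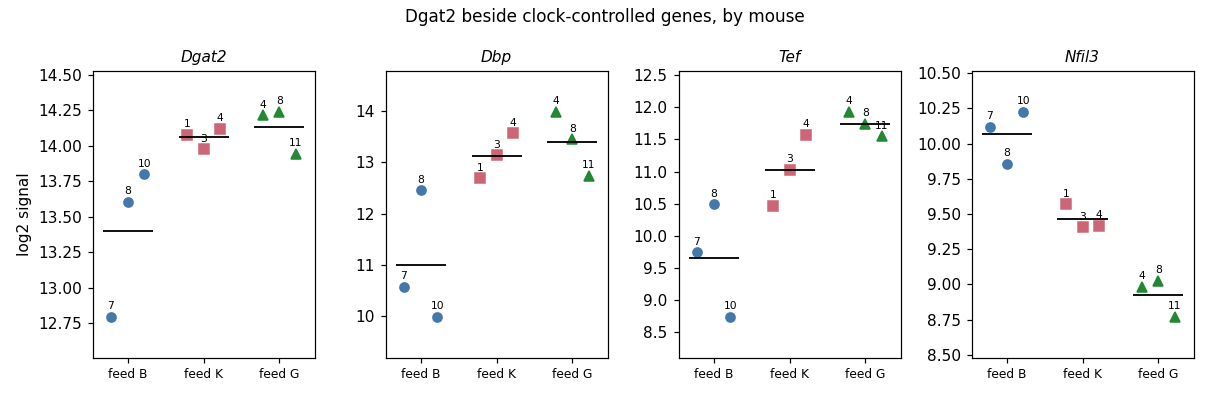
Log2 signal (vertical axis, own scale per panel) of Dgat2 and of the clock-controlled genes Dbp, Tef and Nfil3 in the mice of each feed (horizontal axis). Points are mice with their numbers, and lines are feed means of 3 mice. The feed B mice are lowest for Dgat2 and Dbp, with Dgat2 between 12.80 and 13.80, and highest for Nfil3.

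Scd1, the main stearoyl-CoA desaturase of liver and fat (chr19:44394450-44407709), was high in 2 mice. Its log2 signal was 10.39, 9.90 and 12.46 on feed B, 12.54, 10.64 and 10.71 on feed K, and 10.23, 10.18 and 10.48 on feed G. Mouse 10 of feed B and mouse 1 of feed K stood 1.74 log2 units or more above every other mouse, and the range was 6.24-fold (10.8-fold with median scaling). The same mice had the highest Adipoq, the adipocyte hormone adiponectin, with 12.59 and 12.02 against 10.37 to 11.49 elsewhere, and the highest Fabp4, the fatty acid-binding protein of adipocytes, with 11.36 and 11.27 against 9.25 to 10.76. Cfd and Plin1, the other adipocyte markers detected on all arrays, were highest in mouse 10 of feed B but did not set mouse 1 of feed K apart, which had a Cfd of 12.92, below mouse 3 of feed K (13.47), and a Plin1 of 8.73, below the same mouse (8.80). The summed signal of the 8 adipocyte markers was 6462 to 32944 on feed B, 13304 to 17739 on feed K and 10772 to 12958 on feed G. It was highest in mouse 10 of feed B, while mouse 1 of feed K (16586) was exceeded by mouse 3 of feed K, in which Scd1 was 10.64. Of these 8 markers 4 were detected on all arrays, and Lpl on none. The part of adipocyte RNA in the Scd1 values was not tested.

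Scd2/Scd3, further desaturases of the same cluster on chromosome 19, did not share this pattern. The log2 signal was 12.19, 11.72 and 12.58 on feed B, 12.62, 12.22 and 13.66 on feed K, and 11.68, 10.68 and 13.59 on feed G. Mouse 4 of feed K and mouse 11 of feed G were highest, and mouse 8 of feed G was lowest by 1.00 log2 unit. The range of 7.89-fold was the widest of the 9 genes, and it was 3.97-fold without mouse 8 of feed G. The correlation of Scd2/Scd3 with Scd1 over the 9 mice was 0.33 (Pearson's r, exact permutation p = 0.388), and Spearman's rho was 0.77 (p = 0.021, adjusted p = 0.131 over the 36 pairs).

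**Figure D3:**
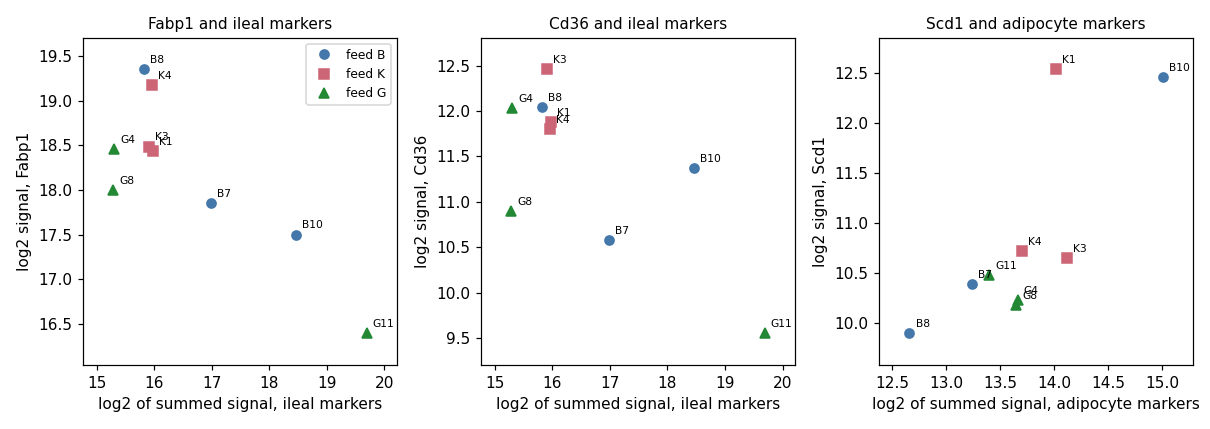
Log2 signal of Fabp1, Cd36 and Scd1 (vertical axes) against log2 of the summed signal of the 4 ileal or 8 adipocyte markers (horizontal axes), 1 point per mouse, marked by feed and number. Mice B7, B10 and G11 combine the highest ileal sums with the lowest Fabp1, and mice B10 and K1 stand apart for Scd1.

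The spread of these genes was set beside that of all genes. Of the 9 genes, 2 (Fabp2 and Mogat2) kept within a 2-fold range over the 9 mice, compared with 57.9% of the 5887 genes detected on all arrays. The comparison depended on the scaling of the arrays, since the members stayed at 2 of 9 while the share of all genes was 24.8% with median scaling and 36.6% with the authors' series table. The median range was 3.47-fold for the 9 genes and 1.85-fold for all those genes. Cd36, Fabp1, Scd1 and Scd2/Scd3 had ranges at percentiles 96.7 to 97.7 of the genes detected on all arrays. Dgat1, at 2.02-fold, lay just outside the limit. Without mouse 7 of feed B, 4 of the 9 genes kept within 2-fold, beside 61.9% of all genes, and without the 3 mice with the highest Fabp6 it was 4 of 9 beside 73.1%.

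No member passed the test between feeds. In limma's F test 0 of 9 had an adjusted p under 0.05, as did 0% of all 9653 genes, and 1 had an unadjusted p under 0.05. For feed K against feed B and for feed G against feed B it was likewise 0 of 9 with an adjusted p (0% of all genes) and 1 of 9, Dgat2, without adjustment (6.31% and 5.74% of all genes). For feed G against feed K it was 0 of 9 on either count (0% and 4.54% of all genes). The unmoderated test gave 0 of 9 in each of the 4 tests after adjustment. Adjusted p-values of the F test were between 0.897 and 0.933 for the 9 genes. The p-values rest on the spread between single mice and treat the mice as independent. The labels say nothing of litters, so this could not be checked.

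The direction of the differences was shared more than their size. All 9 genes had a higher mean on feed K than on feed B, with a median difference of 0.47 on the log2 scale beside 0.05 over all genes, of which 56.9% were higher. On feed G, 8 of the 9 genes had a lower mean than on feed K, Dgat2 being the exception, beside 50.9% of all genes. The median was -0.71 beside -0.01. Between feeds G and B, 3 of 9 were higher on feed G and 6 were lower, beside 42.9% of all genes lower. The median was -0.18 beside 0.06. The count of genes higher on feed G was 7 of 9 with median scaling and 5 of 9 with the authors' series table. When each array was scaled to its median, the median difference of all genes from feed B moved to 0.41 for feed K and 0.53 for feed G. Relative to the shift of all genes, 8 of 9 genes were higher on feed K than on feed B with median scaling and 7 of 9 with the series table, and under both scalings 2 of 9 had a higher mean in the feed G mice than in those of feed B. These comparisons share the feed K and feed B samples, and some of the genes, such as Dgat1 and Mogat2, followed each other over the mice. The comparisons and the genes are therefore not separate observations.

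Without overlap between the feeds, feed K lay above feed B for 2 of 9 genes (Slc27a4 and Dgat2), as for 6.25% of all genes, and below it for 0 of 9 (3.70% of all genes). Feed G lay above feed B for 1 of 9 (Dgat2, 6.30% of all genes) and below it for 0 of 9 (4.63%). Feed G lay below feed K for 3 of 9 (Slc27a4, Dgat1 and Scd1, 7.34% of all genes) and above it for 0 of 9 (6.28%).

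**Figure D4:**
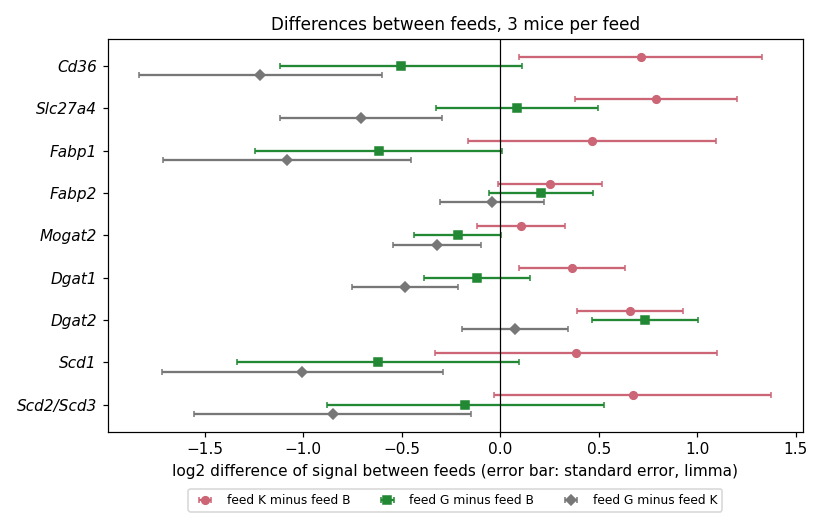
Log2 difference of signal between feeds (horizontal axis) for each of the 9 genes (vertical axis), from limma with 3 mice per feed. Symbols give the contrast, and bars are standard errors. For feed K minus feed B all 9 symbols lie right of 0, and for feed G minus feed K all but Dgat2 lie left of it.

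Which genes followed each other over the mice was examined in all 36 pairs. Dgat1 and Mogat2, which act one after the other on the way to triglyceride, had the closest relation, with Pearson's r = 0.90 (exact permutation p = 0.00083, adjusted p = 0.030 over the 36 pairs) and Spearman's rho = 0.92 (p = 0.0013, adjusted p = 0.047). Without mice 7 and 8 of feed B, which are farthest from the median of Dgat1, r was 0.88. With the feed means subtracted r was 0.91, with an adjusted p of 0.167 over fewer possible permutations. It was the 1 pair of 36 to pass, although leaving out any of 8 of the 9 mice raised its adjusted p to 0.054 or more, with r between 0.87 and 0.95 over the 9 omissions.

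Fabp1 and Cd36 had r = 0.84 (exact permutation p = 0.0056, adjusted p = 0.100) and rho = 0.82 (p = 0.011, adjusted p = 0.129). Without mouse 10 of feed B and mouse 11 of feed G r was 0.65, and over the 6 mice without high Fabp6 it was 0.42. With 1 mouse left out at a time, r was 0.61 without mouse 11 of feed G. It was 0.87 without mouse 10 of feed B and 0.85 without mouse 7 of feed B, so the relation leaned most on mouse 11 of feed G. Fabp1 and Mogat2 had r = 0.77 and rho = 0.63 (exact permutation p = 0.013 and 0.076, adjusted p = 0.112 and 0.304). Fabp1 and Dgat1 had r = 0.76 and rho = 0.82 (exact permutation p = 0.015 and 0.011, adjusted p = 0.112 and 0.129). Neither pair passed. For Fabp1 and Dgat1, r was 0.89 without mouse 10 of feed B and mouse 11 of feed G. Cd36 and Dgat1 had r = 0.76 and Slc27a4 and Dgat1 had r = 0.74, with adjusted p-values of 0.112 and 0.125. The Slc27a4 relation rested on mouse 7 of feed B and mouse 8 of feed G, without which r was 0.26.

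Fabp2 followed neither its relative Fabp1 (r = 0.11, exact p = 0.787) nor Cd36 (r = -0.01, exact p = 0.982). Without mouse 10 of feed B and mouse 11 of feed G, r between Fabp1 and Fabp2 was 0.87. Between Fabp2 and Cd36, r was 0.71 without mouse 8 of feed B and mouse 11 of feed G. Both low values thus depended on the mice left out. Dgat1 and Dgat2, which catalyse the same reaction, had r = 0.42 (exact p = 0.270).

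**Figure D5:**
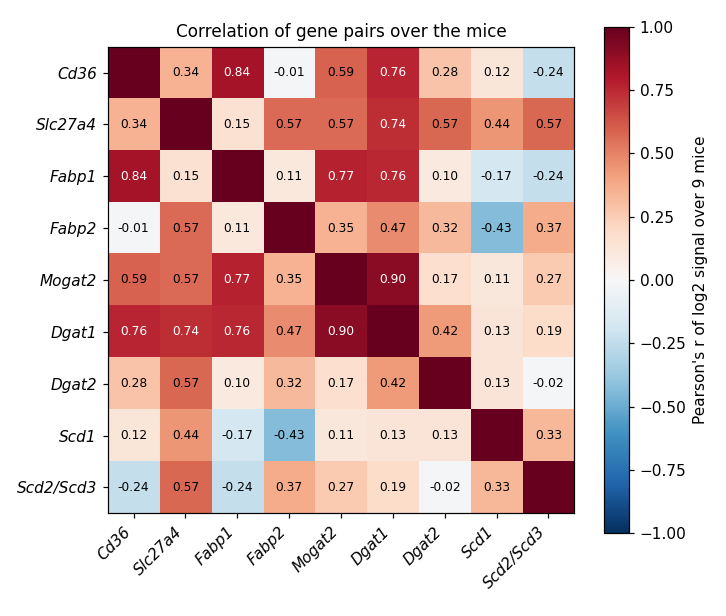
Pearson's r of log2 signal over the 9 mice for each pair of the 9 genes, printed in the cells and coloured from -1 (blue) to 1 (red). Cd36, Fabp1, Dgat1 and Mogat2 form the block of higher values (0.59 to 0.90), and the desaturases stand outside it.

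Other genes of lipid handling were examined as lists of 68 genes, of which 63 were matched to the array and 62 had a row of their own. Of the 54 with detection on at least 3 arrays, which were tested, 0 passed limma's tests after adjustment in either direction, for any pair of feeds, and 4 had an unadjusted p under 0.05 in the F test, where 5.37% of all genes had one. The median log2 difference of the 54 genes was 0.22 between feeds K and B, -0.01 between feeds G and B and -0.15 between feeds G and K.

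In glycerolipid synthesis these were Gpat3, Gpat4 and Agpat1. Gpat3, which starts glycerolipid synthesis by acylating glycerol phosphate, had mean log2 signals of 11.38 ± 0.19 on feed B, 11.54 ± 0.21 on feed K and 10.80 ± 0.28 on feed G (SD, n = 3, limma's adjusted p of the F test = 0.888). Agpat1, which adds the following acyl chain, had 10.92 ± 0.37, 11.37 ± 0.11 and 10.61 ± 0.08 (limma, adjusted p = 0.894). Both had their lowest mean on feed G, as had Cd36, Fabp1, Mogat2, Dgat1, Scd1 and Scd2/Scd3. Slc27a4, Fabp2 and Dgat2 had theirs on feed B. Gpat4 and, among the regulators, Pparg, a nuclear receptor of fat metabolism, were detected on 6 and 8 arrays and had unadjusted p-values of 0.0022 and 0.018 (limma, adjusted p = 0.696 and 0.852). Both had their lowest mean on feed B. Gpat4 had means of 6.26, 8.33 and 8.65 on feeds B, K and G, and Pparg had 7.85, 9.04 and 9.06. The part of undetected spots in these p-values was not tested. Gpat4 and Pparg are named because the count is small, after their values were seen.

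Of the 39 genes detected on all arrays 15 kept within 2-fold, with a median range of 2.06-fold. The narrowest were Elovl5, a fatty acid elongase (1.35-fold), Tm6sf2, which acts in lipoprotein secretion (1.39-fold), Pnpla2, the adipose triglyceride lipase (1.42-fold), and the nuclear receptors Nr1h3 (1.48-fold) and Rxra (1.51-fold). With median scaling the ranges of Elovl5, Tm6sf2 and Rxra passed 2-fold, at 2.36, 2.43 and 2.38-fold, and that of Tm6sf2 was 2.25-fold with the series table. The widest were Slc27a2, a very long-chain acyl-CoA synthetase (5.81-fold), the lysophosphatidate acyltransferases Agpat2 (4.47-fold) and Agpat3 (4.46-fold), Acsl1, a long-chain acyl-CoA synthetase (4.44-fold), and Fabp4 (4.33-fold). Uptake and activation had 0 of 4 genes within 2-fold and the regulators 6 of 9. Without the 3 mice with the highest Fabp6 the range of Slc27a2 was 1.69-fold, that of Acsl1 1.60-fold, that of Agpat2 1.75-fold and that of Agpat3 1.88-fold. Without mouse 7 of feed B alone Acsl1 kept within 1.71-fold and Agpat3 within 2.69-fold, and without mouse 11 of feed G alone Slc27a2 kept within 3.83-fold and Agpat2 within 2.93-fold. The range of Fabp4 was 8.16-fold when dim spots were left out, and with median scaling those of Acsl1 and Agpat2 were 7.33 and 8.01-fold.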

How the data were processed

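RNA was measured on 9 single-colour arrays, 1 per mouse, with 3 mice on each of feeds B, K and G. The authors deposited for each array the scanner's signal intensity per spot, corrected for background and spatially normalized, with a signal-to-noise ratio score and a flag score. They also deposited a series table, whose 297108 values equal the scanner's assay-normalized signal intensity. RMA is named in the submitters' processing notes without a role. All arrays carry 1 folder name, so no batch could be examined.

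Signals whose flag exceeded 5000 were set aside as failed. The remaining signals were quantile normalized (arithmetic mean) and taken to log2, and probes of the same gene were averaged (15674 genes). Detection required a ratio of signal to noise of 3 or above. The 9653 genes detected on at least 3 arrays were tested by the moderated F test and 3 contrasts of limma (version 3.58.1, functions lmFit and eBayes, under R 4.3.3), with Benjamini-Hochberg adjustment at 0.05. Correlations over the 9 mice used all 362880 pairings (two-sided exact permutation tests), or the 216 permutations within feeds once feed means were subtracted. Python 3.11.15 with scipy 1.17.1, pandas 2.3.3 and numpy 2.4.6 served for the remaining steps. The fits and the permutation tests were tested on simulated data. The number of arrays limits the precision. Gene positions and upstream sequences are from RefSeq (GRCm38.p6).

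Named are all members, the pathway genes detected on all arrays with an unadjusted p under 0.05 in the F test, the 5 pathway genes with the widest and the 5 with the narrowest range, and markers where a result turns on them. The members, lists and alternatives were chosen with earlier results of these data known. To leave out the 3 arrays with the highest Fabp6 and to relate members to marker sums was decided after seeing the data. Also tried were the series table, median scaling, the brightest probe, failed spots kept, dim spots left out, a floor at percentile 5, other filters, an unmoderated or exact test, and the omission of arrays.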

Additional observations from a re-analysis of the deposited data

Results flagged for a closer look

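Dgat2 in mouse 7 of feed B stood apart from the other mice: its gap to the next lowest mouse was 0.561 of the whole range of the 9 mice, above Dixon's 95% critical value. Chance flags about 1 in 20 groups, and 9 genes were examined.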

How the results depend on the processing

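All 9 members stayed above an adjusted p of 0.05 in every feed test under each alternative run. The number of genes called over the whole array went from 0 in the F test to 1 with the filter on all arrays, 3 without dim spots and 1 with the unmoderated test. For feed G minus feed B it went from 0 to 1, 4 and 1 under the same alternatives, and for feed G minus feed K to 3 without dim spots and 1 with the unmoderated test. Leaving out each array in turn gave 0 to 3 genes in the F test, 0 to 10 for feed K minus feed B, 0 to 3 for feed G minus feed B and 0 to 0 for feed G minus feed K, with all calls on leaving out mouse 10 of feed B. Without the 3 arrays with the highest Fabp6, which leaves 1 mouse on feed B that is assumed to vary like the other groups, 107 genes were called for feed K minus feed B and none of them was a member. Genes with an unadjusted p under 0.05 in the F test went from 518 to 1077 with median scaling.

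The count of members within a 2-fold range was 2 to 4 on leaving out each array, and 4 without the 2 arrays with fewest detected probes or the 3 with the highest Fabp6. It stayed at 2 with median scaling and the series table, where the share of all genes within 2-fold was 24.8% and 36.6% in place of 57.9%. The count of correlated pairs was 4 with median scaling and 0 with the series table, with feed means subtracted, without the 2 arrays with fewest detected probes and without the 3 with the highest Fabp6, and 0 to 1 on leaving out each array. With feed means subtracted, Dgat1 and Mogat2 reached the smallest possible permutation p, 0.0046. Its adjusted p was 0.167, so 1 pair alone could not pass. The 6 mice without high Fabp6 also allow few permutations, so neither of these 2 counts shows that a correlation was lost. The Dgat2 differences from feed B and the correlations of Dgat1 with Mogat2 and of Fabp1 with Cd36 kept their sign under all alternatives. No paired analysis was possible because feeds B and G share 1 mouse number, feeds K and G share 1, feeds B and K share none, and the numbers are not said to pair mice. With 3 mice per feed only large differences could pass.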

Other observations

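Relations of the 9 genes to marker sums were computed within the larger cluster of mice, 18 relations in all. Over the 6 mice without high Fabp6, Slc27a4 and the summed ileal markers had r = 0.97 and rho = 1.00 (exact permutation p = 0.0014 and 0.0028, adjusted p = 0.025 and 0.050). In these 6 mice the sum was mainly Slc51a (log2 signal 13.31 to 14.35) and Slc51b (14.77 to 15.62). Fabp6 was at most 12.19 there, and Slc10a2 at most 9.73. The permutations ignored the feeds, and the 6 mice were 1 of feed B, 3 of feed K and 2 of feed G. The values divided by feed, since mice 4 and 8 of feed G had the lowest values of Slc27a4 and of the sum. With the feed means subtracted and permutation within feeds, r was 0.61 (exact permutation p = 0.083, the smallest that the 12 permutations allow), so no relation beyond the feeds was shown. Leaving out a pair of mice would leave 4, too few for a further correlation. Over the 7 mice without high Scd1, Scd1 and the summed adipocyte markers had r = 0.73 and rho = 0.68 (exact permutation p = 0.061 and 0.110, adjusted p = 0.273 for r). For Fabp1 and Cd36 the relation with the ileal sum over the 6 mice was positive, r = 0.58 and 0.55 (exact permutation p = 0.217 and 0.319, adjusted p = 0.541 for both).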
